A study of Solanum lycopersicum x Solanum pennellii and Solanum lycopersicum with 21 samples.

Results

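The features described here are 123 probe sets that carry no gene symbol and were low in a single introgression line of tomato, out of 9129 probe sets without a symbol on the array. They were chosen by their measured levels. In exactly 1 of the 4 lines, the mean of the line had to lie at least 1 log2 unit below the mean of each of the other 4 groups. Every array of that line also had to lie below every array of the other groups. The falls in the low line are therefore a description of what was picked, and no test of them is given. The members split into 21 low in IL-1_1_3, 36 low in IL-4_2, 39 low in IL-7_2 and 27 low in IL-8_1_1.

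The samples were anthers taken 1 day before the flower opens. Lines IL-1_1_3 (3 arrays), IL-4_2, IL-7_2 and IL-8_1_1 (4 arrays each) are introgression lines, with a stretch of wild Solanum pennellii genome inside that of the cultivated tomato, and M82 (6 arrays) is the cultivated parent and the control. Only the titles of the M82 arrays hold the word pollen, and whether the tissue differed between them and the lines was not tested. A second label calls IL-1_1_3 simply IL-1_1, and IL-8_1_1 is IL-8_1 there. The design text calls the lines hybrids, and no label says whether a line carried its segment in 1 copy or on both chromosomes. The labels name neither separate plants nor cultures for the arrays of a group, so a p-value measures the spread between these arrays, which may be technical.

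In an introgression line, a gene inside the segment carries the wild allele and the rest of the genome is the cultivated one. An Affymetrix probe set is a group of short probes that together give 1 value for a transcript, and the probes were designed from cultivated tomato sequences. A wild allele can therefore give a lower signal because less transcript is present or because the transcript pairs less well with the probes. These cannot be told apart in the values described here. Nor can fewer cells of one type in an anther and less RNA per cell be told apart. The number in a probe set's name (Les or LesAffx, then digits) stands for a cluster of tomato sequences, and several probe sets can share it. S1 and A1 mark the sense and antisense orientation of the sequence the probes were taken from. The ending _s_at marks probes shared by several sequences. The members are unnamed in the annotation used here, so they are given by ID, with no function and no position in the genome.

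Values were log2 levels from 3.39 to 14.69, and array medians lay between 9.47 and 9.54. Array values have no counting depth behind them, and precision depends on how many arrays a group has. Arrays of the same group correlated at r = 0.925 to 0.998 over all probe sets, a description only since probe sets are not replicates. By its mean correlation with the group, a single array stood apart in every group but IL-1_1_3. In IL-7_2 it was array 2 (0.941, others 0.965 to 0.974), and in IL-4_2 array 3 (0.989, others 0.993 to 0.994). M82 had array 3 (0.979, others 0.985 to 0.986) and IL-8_1_1 array 2 (0.985, others 0.990 to 0.992). IL-8_1_1 array 2 was left out singly below, but not together with the other 3. A list of pollen genes held 13 symbols, some of them other spellings of the same gene, and 4 of these symbols were in the platform's annotation. Listed genes without a symbol there may still have a probe set on the array. Shy averaged 13.95 to 14.08 over the lines and 14.01 in M82, while PRK3, a pollen receptor kinase, averaged 6.37 in IL-7_2, 7.41 to 8.43 in the other lines and 7.32 in M82. PRK1, of the same family, averaged 11.84 in IL-7_2, 12.67 to 12.71 in the other lines and 12.36 in M82. PRK2, also of that family, differed less, at 12.46 in IL-7_2, 12.59 to 12.72 in the other lines and 12.52 in M82. Of 9 green-tissue symbols, 2 were in that annotation, and both had their lowest group mean in IL-1_1_3. CAB4 averaged 9.92 in IL-1_1_3, 10.64 to 10.91 in the other lines and 11.04 in M82. CAB6A averaged 10.51 in IL-1_1_3, 10.83 to 11.14 in the other lines and 11.24 in M82. Over the arrays of all groups, values ran from 4.71 to 9.86 for PRK3, 10.74 to 13.14 for PRK1 and 12.11 to 12.97 for PRK2. They ran from 13.79 to 14.20 for Shy, 8.53 to 12.22 for CAB4 and 10.005 to 11.43 for CAB6A. The spread within each group is not given here, so a low group mean may rest on a single array. The differences between these means were not tested. How far these levels bear on the members was not tested either.

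The same rule applied in other directions gave fewer probe sets. No unnamed probe set was low in M82 alone, whether the separation of the arrays was asked for or the gap alone. The mirrored rule, high in a single line, found 29 unnamed probe sets (0.318%, against 1.35% low). They were 4 in IL-1_1_3, 5 in IL-4_2, 15 in IL-7_2 and 5 in IL-8_1_1, and 0 were high in M82 alone. By the gap alone, 50 were high in a single line, against 155 low, and 7 were high in M82 alone. Among the 909 probe sets that do have a symbol, 15 (1.65%) were low in a single line. Those were 5 in IL-1_1_3 (3 of them XTH16, a xyloglucan-modifying cell wall enzyme), 5 in IL-7_2 (among them HPL, hydroperoxide lyase), 5 in IL-8_1_1 (among them HY5, a light-signalling transcription factor, and 2 of PMM) and 0 in IL-4_2, the line with the second most unnamed members. These counts were not tested against each other.

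**Figure D1:**
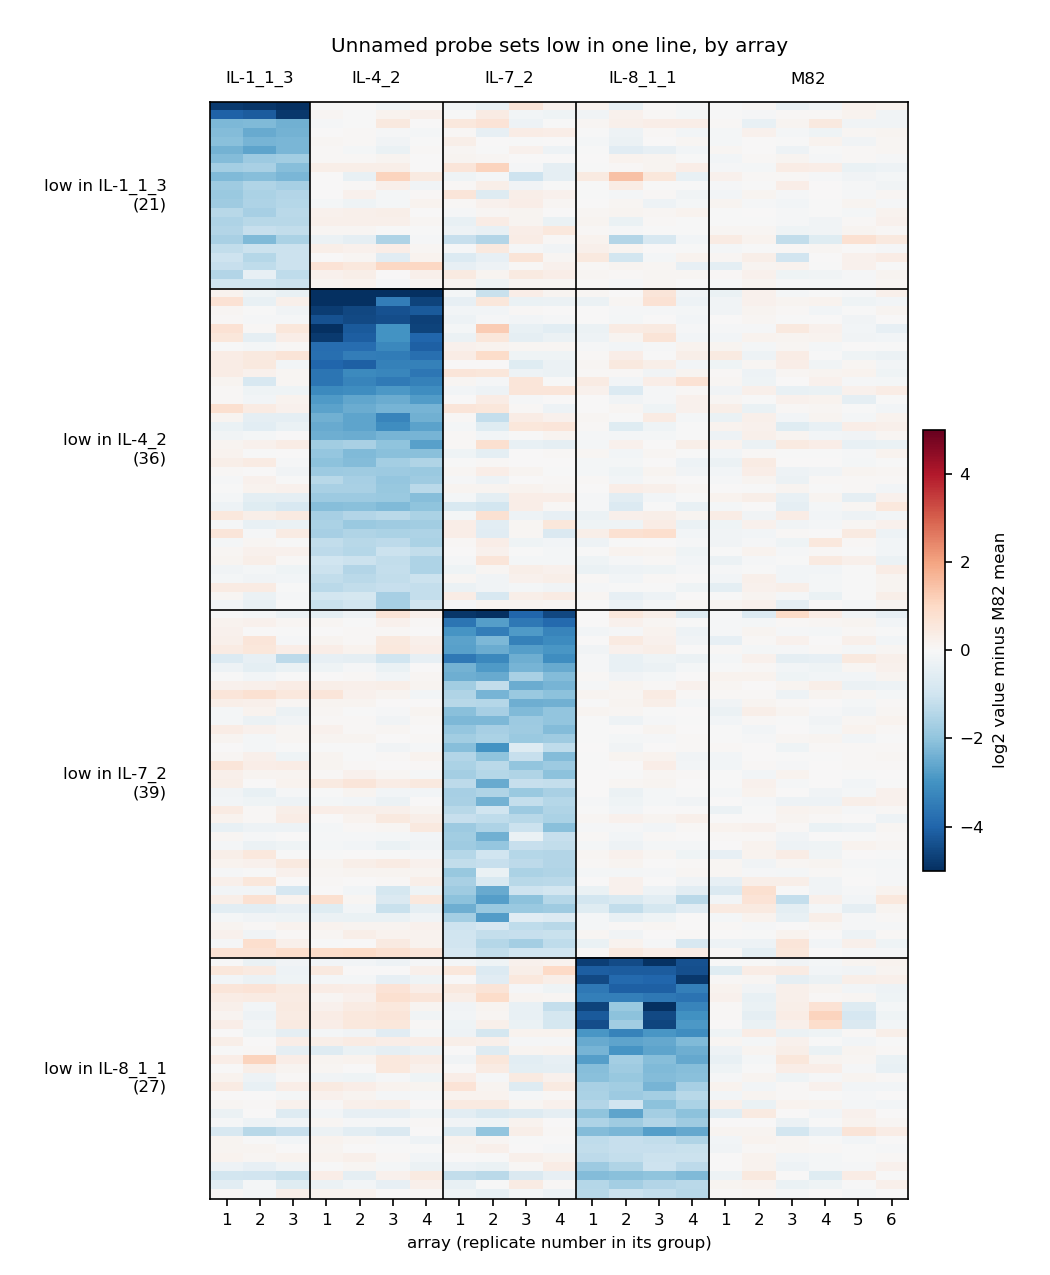
Log2 level of each of the 123 members on each of the 21 arrays minus the mean of the M82 arrays, drawn as colour on a scale cut at 5 in size, with members running down the page by low line and then by gap, and arrays across it with the lines left of M82. The low block lies in the arrays of 1 line for each group of members, and the median over those members in any other array was between -0.10 and 0.15.

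The depth of the fall differed between members more than between lines. The median of line minus M82 on the log2 scale was -1.65 in IL-1_1_3, -2.09 in IL-4_2, -1.68 in IL-7_2 and -2.13 in IL-8_1_1. As folds, the median member was 3.14, 4.27, 3.20 and 4.36 times lower in these lines than in M82, with extremes from 2.01 to 91.0. The gap, meaning the distance from the low line's mean to the nearest other group mean, was at least 2 in 44 members. It was at least 3 in 24 members, 11 of them low in IL-4_2 and 8 low in IL-8_1_1. It was at least 4 in 11 members, 5 of them low in IL-4_2. The medians over single arrays of the low line ran from -1.76 to -1.59 in IL-1_1_3, -2.23 to -2.09 in IL-4_2, -1.84 to -1.71 in IL-7_2 and -2.21 to -1.84 in IL-8_1_1. The rule asked every array of the line to be low, so a fall on each array was set in advance.

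At the threshold, the member just inside was LesAffx.21058.1.S1_at, with a gap of 1.00192 and means of 7.95 in IL-4_2 and 9.13 in M82. The unnamed probe set just outside was LesAffx.30318.1.S1_at, with a gap of 0.993776 and means of 9.66 in IL-4_2 and 10.72 in M82. The widest gap left out because the arrays overlapped was 3.08, for LesAffx.823.1.S1_at in IL-7_2, where the highest array of the line read 14.19 and the lowest array outside it 9.14.

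Of the members low in IL-1_1_3, a pair fell far further than the other 19. LesAffx.67882.1.S1_at read 5.52, 5.47 and 4.90 on the IL-1_1_3 arrays, against 10.01, 10.36 and 10.51 (lowest, median and highest) on the M82 arrays. Its means were 5.30 ± 0.34 (SD, n = 3) in the line and 10.32 ± 0.21 (SD, n = 6) in M82, a level 32.4-fold lower in the line, and the other lines averaged 10.25 to 10.41. Les.2320.1.A1_at read 5.65, 5.55 and 4.85 in IL-1_1_3, against 9.52, 9.70 and 9.85 in M82, and was 20.3-fold lower. Array 3 was the lowest of the line for both, and both were left near the same level. No other member of IL-1_1_3 had a gap above 2.29.

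The next members of IL-1_1_3 fell about as far as each other from very different starting levels. LesAffx.62967.1.S1_at read 10.95, 10.74 and 10.78 in IL-1_1_3, against 12.87, 13.07 and 13.23 in M82, and was 4.71-fold lower. Les.323.1.S1_at read 9.68, 9.73 and 9.51 in the line, against 11.56, 11.87 and 12.43 in M82, and was 4.88-fold lower. Both remained bright in the low line. LesAffx.55283.1.S1_at read 6.47, 6.13 and 6.29, against 8.44, 8.65 and 8.88 in M82, and was 5.14-fold lower. LesAffx.14638.1.S1_at read 6.40, 6.14 and 6.46, against 8.51, 8.79 and 8.86 in M82, and was 5.36-fold lower. The arrays of IL-1_1_3 lay close together for these 4, with SDs of 0.11 to 0.17.

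IL-4_2 held the deepest fall of all 123. Les.2423.1.A1_at read 5.73, 5.49, 5.55 and 5.27 on the IL-4_2 arrays, against 11.70, 11.99 and 12.26 (lowest, median and highest) in M82. Its means were 5.51 ± 0.19 (SD, n = 4) in IL-4_2 and 12.02 ± 0.21 (SD, n = 6) in M82, which is 91.0-fold lower in the line, and its gap to the nearest line was 6.32. Its 4 arrays were within 0.5 of each other. Les.5783.1.S1_at was as even, at 7.20, 7.07, 7.13 and 6.91 in IL-4_2, against 11.41, 11.59 and 11.67 in M82, or 22.4-fold lower. Les.2716.1.A1_at read 6.46, 6.68, 6.88 and 7.04, against 11.06, 11.22 and 11.37 in M82, or 21.9-fold lower.

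The other 3 of the 6 widest gaps in IL-4_2 were uneven between its arrays. Les.612.1.S1_at read 4.83, 5.51, 7.29 and 6.10 in IL-4_2, against 10.51, 10.73 and 10.96 in M82, a mean 27.9-fold lower with an SD of 1.04 in the line. Les.612.2.A1_at, of the same number, read 6.50, 7.14, 8.29 and 7.30, against 11.09, 11.28 and 11.47 in M82, a mean 15.7-fold lower. LesAffx.57950.1.S1_at read 5.14, 6.15, 7.36 and 5.74, against 9.95, 10.30 and 10.84 in M82, a mean 19.2-fold lower. In all 3 the highest array of the line was array 3 and the lowest array 1. These 3 were the only members of IL-4_2 with an SD above 0.5, and array 3 is the one that stood apart in its group. It was the highest of the line for 11 of the 36 members and the lowest for 7.

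Members of IL-7_2 were the most numerous and the most variable between arrays. Les.413.1.S1_s_at, whose probes are shared by several sequences, read 7.35, 6.79, 8.23 and 7.65 in IL-7_2, against 11.51, 12.10 and 13.15 in M82. Its mean was 26.1-fold lower in the line, and its M82 arrays spread as widely (SD 0.59) as those of the line (SD 0.60). Les.1577.1.A1_at read 8.41, 9.32, 8.47 and 8.19, against 11.94, 12.06 and 12.21 in M82, and was 11-fold lower. Array 2 was the highest here and the lowest for Les.413.1.S1_s_at. Les.1297.2.A1_at read 5.09, 4.57, 5.19 and 4.75, against 7.96, 8.01 and 8.17 in M82, and was 8.79-fold lower.

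Les.4649.1.S1_at read 8.47, 8.91, 7.77 and 7.99 in IL-7_2, against 10.72, 11.18 and 11.39 in M82, and was 7.25-fold lower. Les.2713.1.A1_at was the most even of the 6, at 6.01, 6.23, 5.98 and 5.81, against 8.63, 8.72 and 8.81 in M82, or 6.55-fold lower. Les.344.2.S1_at read 4.74, 5.09, 5.89 and 5.20, against 7.86, 8.39 and 8.81 in M82, or 8.56-fold lower. For Les.344.2.S1_at the nearest group was IL-1_1_3 at a mean of 7.54, so its gap of 2.31 was smaller than its distance of 3.10 from M82.

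Les.1484.1.A1_at had the widest gap among the members of IL-8_1_1, 4.45. It read 6.74, 6.98, 6.51 and 7.11 on the IL-8_1_1 arrays, against 11.28, 11.44 and 11.63 in M82, with means of 6.83 ± 0.26 (SD, n = 4) in the line and 11.46 ± 0.13 (SD, n = 6) in M82, or 24.6-fold lower. Les.5762.1.S1_at read 7.74, 8.38, 8.28 and 7.41, against 11.81, 12.33 and 12.54 in M82, or 19.6-fold lower. Les.937.2.A1_at read 4.03, 3.98, 4.01 and 3.76, against 7.56, 8.16 and 8.56 in M82, or 18.6-fold lower. With Les.2227.1.A1_at (4.95, 4.46, 4.46 and 5.12 in IL-8_1_1, against 8.28, 8.53 and 8.80 in M82) and Les.340.1.A1_at (4.42, 4.41, 4.25 and 4.13, against 7.45, 7.89 and 8.08) it belonged to the 5 members of this line left below 5.

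Les.1205.1.A1_at was the most uneven member of all. Its IL-8_1_1 arrays read 7.54, 10.34, 7.06 and 8.86, against 11.54, 12.16 and 12.90 in M82, a mean 13.2-fold lower with an SD of 1.47 in the line. All 4 arrays lay below M82, with array 2 nearest to it and array 3 farthest from it.

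The remaining members formed a continuous range below these. In IL-1_1_3 the other 15 had gaps of 1.03 to 1.90, were 2.04- to 4.61-fold lower than M82 and kept levels of 5.78 to 12.09. In IL-4_2 the other 30 had gaps up to 3.70, were 2.24- to 13.2-fold lower and kept levels of 3.91 to 10.76. In IL-7_2 the other 33 had gaps up to 2.16, were 2.01- to 5.71-fold lower and kept levels of 4.49 to 12.76. In IL-8_1_1 the other 21 had gaps up to 3.13, were 2.22- to 10.9-fold lower and kept levels of 4.80 to 9.53. The SD of these members in the low line ran from 0.060 to 0.563 in IL-1_1_3, 0.037 to 0.499 in IL-4_2, 0.084 to 1.04 in IL-7_2 and 0.055 to 1.35 in IL-8_1_1.

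**Figure D2:**
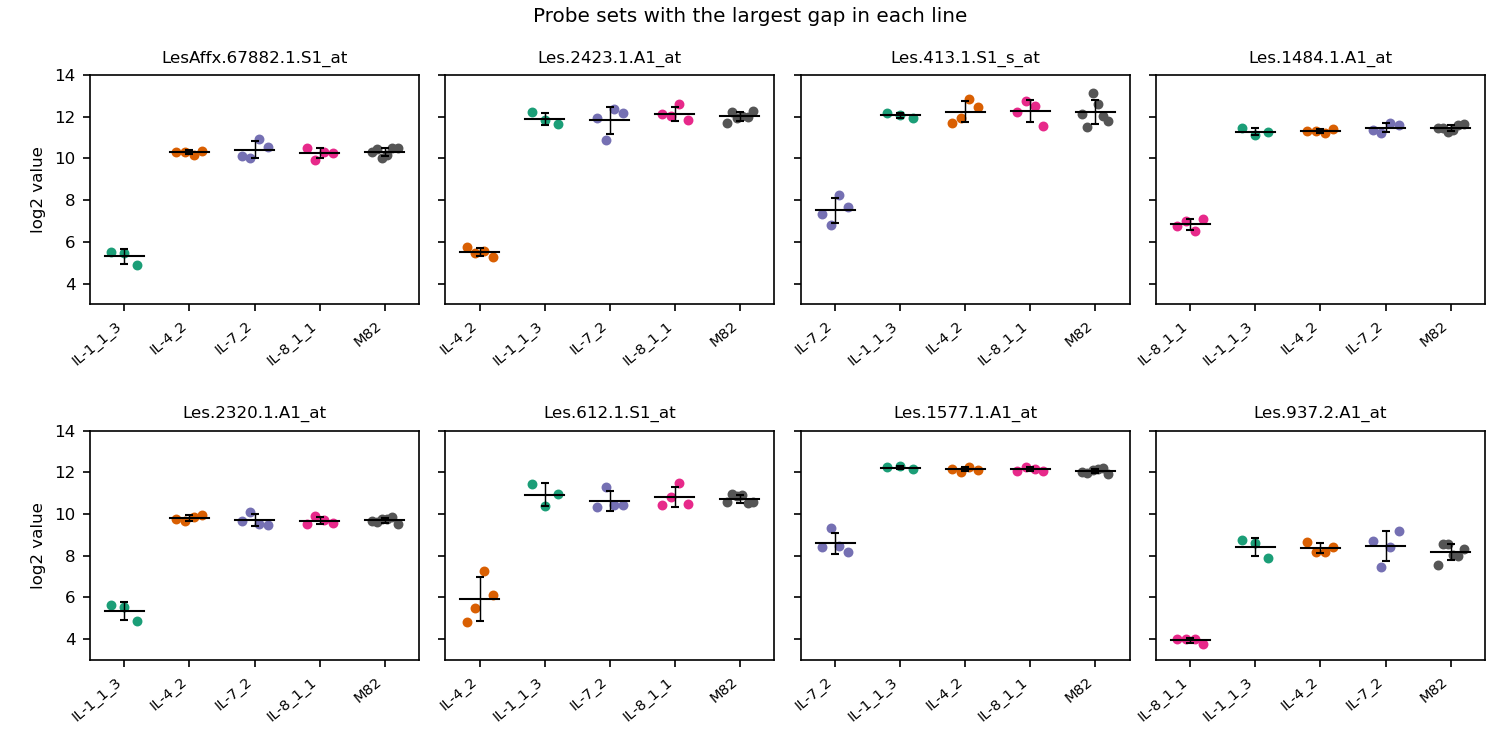
Log2 value on every array for the 2 members with the widest gap in each line, 1 panel a member. Points are arrays, horizontal bars the group means and whiskers the SD, with the low line at the left of each panel, the other lines next and M82 at the right. The low line's arrays lie close together for Les.2423.1.A1_at (SD 0.19) and apart for Les.612.1.S1_at (SD 1.04).

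The level left in the low line is the mean log2 value of the member there. A level of 1 probe set cannot be set against that of another as an amount of transcript, so the levels only place members on the scale of the array. The median level left was 7.46 in IL-1_1_3, 7.02 in IL-4_2, 8.18 in IL-7_2 and 6.82 in IL-8_1_1. The median level of the same members in M82 was 9.53, 9.93, 9.86 and 8.82. Levels left ran from 3.91, for a member of IL-4_2, to 12.76, for Les.3186.1.S1_at in IL-7_2.

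Most members were left at 5 or above, though a value on this scale does not by itself show that transcript remained. Of the 123, 12 were left below 5, 41 between 5 and 7, 43 between 7 and 9, and 27 at 9 or above. Of the 12 below 5, 5 were low in IL-4_2, 5 in IL-8_1_1, 2 in IL-7_2 and 0 in IL-1_1_3. Of the 27 at 9 or above, 14 were low in IL-7_2 and 1 in IL-8_1_1. The percentile 10 of all unnamed probe sets was 4.84 to 4.88, depending on the line, and 8 members were left below it. The percentile 25 was 7.14 to 7.25, and 59 members were left below it. Signal over background is not given with these values, so a member left near the lower end may have fallen further than its difference shows.

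**Figure D3:**
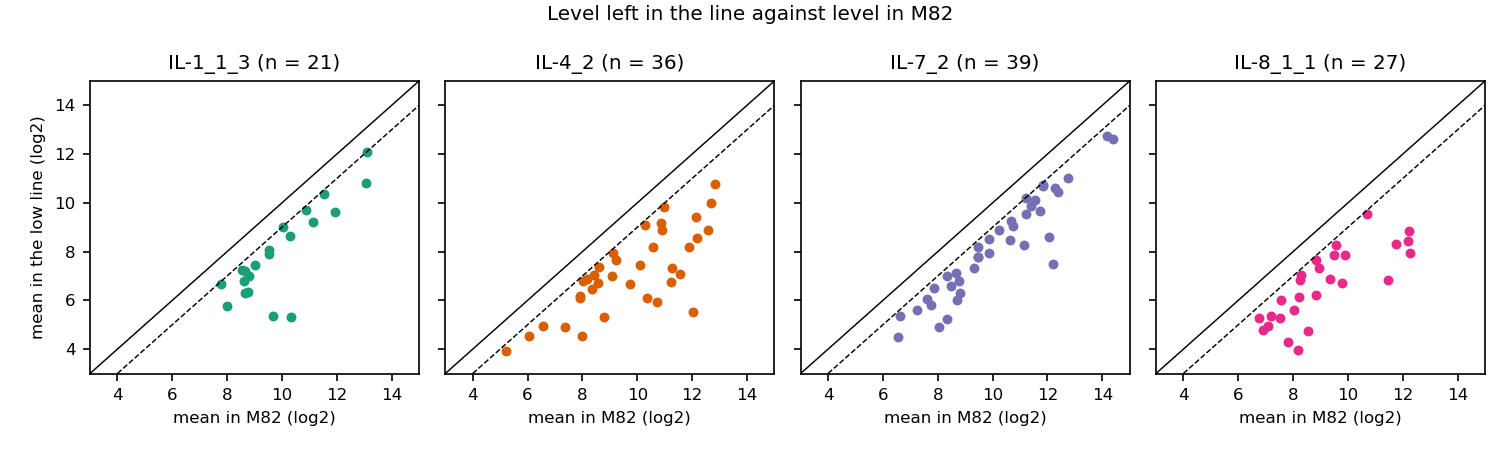
Mean log2 level left in the low line (vertical axis) against the mean in M82 (horizontal axis) for the 123 members, 1 point a member and 1 panel a line. The solid diagonal marks equal levels and the dashed one a level 1 log2 unit lower, on or below which every member lies by the rule.

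The means of the members in M82 ran from 5.22 to 14.40, since a member needs room to fall by 1. The median M82 level was 9.51 for members and 9.53 for all 9129 unnamed probe sets. Levels in M82 were 11 or more for 28.5% of members and 25.5% of all unnamed, and below 9 for 42.3% of members and 42.6% of all unnamed. LesAffx names made up 35.0% of members (43), against 45.2% of all unnamed. The antisense mark A1 stood in 37.4% of members (46), against 25.1% of all unnamed. By line, A1 was in 2 of 21 members of IL-1_1_3, 14 of 36 of IL-4_2, 17 of 39 of IL-7_2 and 13 of 27 of IL-8_1_1. The ending _s_at stood in 2 members (1.63%), against 0.80% of all unnamed. These shares are descriptions with no test, and members of the same number are not independent.

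The spread between arrays of the low line was widest in IL-7_2. The median SD over members was 0.341 in IL-7_2, against 0.172 in IL-1_1_3, 0.181 in IL-4_2 and 0.194 in IL-8_1_1. An SD above 0.5 was found in 12 members of IL-7_2, 3 of IL-8_1_1, 3 of IL-4_2 and 1 of IL-1_1_3. Array 2 of IL-7_2 was the highest of its line in 16 of 39 members and the lowest in another 16. Without that array the median SD in IL-7_2 was 0.220 with 7 members above 0.5, while the median of line minus M82 was -1.70 in place of -1.68. The SD in the low line exceeded the SD in M82 for 78 of the 123 members.

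Some uneven members followed the same order of arrays. In IL-7_2, 9 members read highest on array 3, then 4, then 1, and lowest on array 2. Among them were Les.3186.3.A1_at (12.26, 11.42, 13.75 and 13.11 in IL-7_2, against 14.20, 14.44 and 14.45 in M82) and Les.3186.1.S1_at (12.42, 11.76, 13.84 and 13.01, against 13.99, 14.19 and 14.22). For both, the highest IL-7_2 array came within 0.5 of the lowest M82 array. In IL-8_1_1 the 3 probe sets of Les.1205 shared an order in which array 2, which stood apart in its group, was highest and array 3 lowest. Les.1205.2.S1_at read 7.54, 9.70, 7.23 and 8.70 in IL-8_1_1, against 10.90, 11.66 and 12.84 in M82. Les.1205.3.S1_at read 7.82, 10.49, 7.66 and 9.38, against 11.53, 12.18 and 13.12 in M82.

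The 123 members carried 109 numbers. Of these, 78 had a single unnamed probe set on the array and 31 had several. That is 28.4% of the numbers, against 22.6% of the 7089 numbers over all unnamed probe sets. A number with several probe sets has more chances to hold a member, so the higher share is no result about the members. In 9 of the 31, every unnamed probe set of the number was a member, and in 22 only a part. Together 12 numbers held 26 members, always low in the same line as each other. The other 26 probe sets of these 31 numbers did not meet the rule.

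Among numbers whose probe sets were all members, several fell by nearly the same amount. Les.3222 in IL-1_1_3 fell by 1.46 and 1.44 against M82 in its 2 probe sets, and Les.2500 by 1.90 and 1.65. Les.1205 in IL-8_1_1 changed by -3.73, -3.45 and -3.40 in its 3 probe sets. Les.3186 in IL-7_2 changed by -1.77 and -1.40. In these numbers the spread of the changes was between 0.024 and 0.37.

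In other numbers the probe sets fell together by different amounts. Les.612 in IL-4_2 changed by -4.80 and -3.97, and Les.5886 in the same line by -3.43 and -2.44. Les.1297 in IL-7_2 changed by -3.14 and -1.93. The arrays of IL-7_2 ranked differently in the 2 probe sets of Les.1297, since Les.1297.1.S1_at read 8.46, 8.43, 7.40 and 7.44 in the line, against 9.69, 9.90 and 9.99 in M82. LesAffx.57950 in IL-4_2 is read in both orientations, and the sense probe set changed by -4.27 and the antisense one by -1.52. The antisense probe set read 4.37, 4.56, 4.71 and 4.45 in IL-4_2, against 5.77, 5.91 and 6.40 in M82, so it started far lower on the scale. Les.937 in IL-8_1_1 was the most unequal, at -4.22 for Les.937.2.A1_at and -1.15 for Les.937.1.S1_at, which read 7.53, 7.63, 7.76 and 7.75 in the line, against 8.70, 8.81 and 8.999 in M82.

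A deep fall in one probe set was not always shared by the others of its number. In IL-4_2, Les.3179.1.A1_at read 8.78, 8.78, 9.39 and 8.52, against 12.49, 12.59 and 12.72 in M82, or 13.2-fold lower. The other 3 probe sets of Les.3179 changed by -0.06, -0.17 and -0.16 in that line, with adjusted p-values of 0.492 to 0.696 in limma, and none was called. One of them, Les.3179.1.A1_a_at, carries the same orientation mark and averaged 13.00 in IL-4_2 and 13.05 in M82. LesAffx.2889.4.S1_at changed by -2.02 in IL-4_2, and the other 3 of its number by 0.18, 0.14 and -0.10, none of them called. In IL-7_2, Les.4649.1.S1_at changed by -2.86 and Les.4649.1.S1_s_at, whose probes are shared, by -0.27 (adjusted p = 0.587 in limma).

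**Figure D4:**
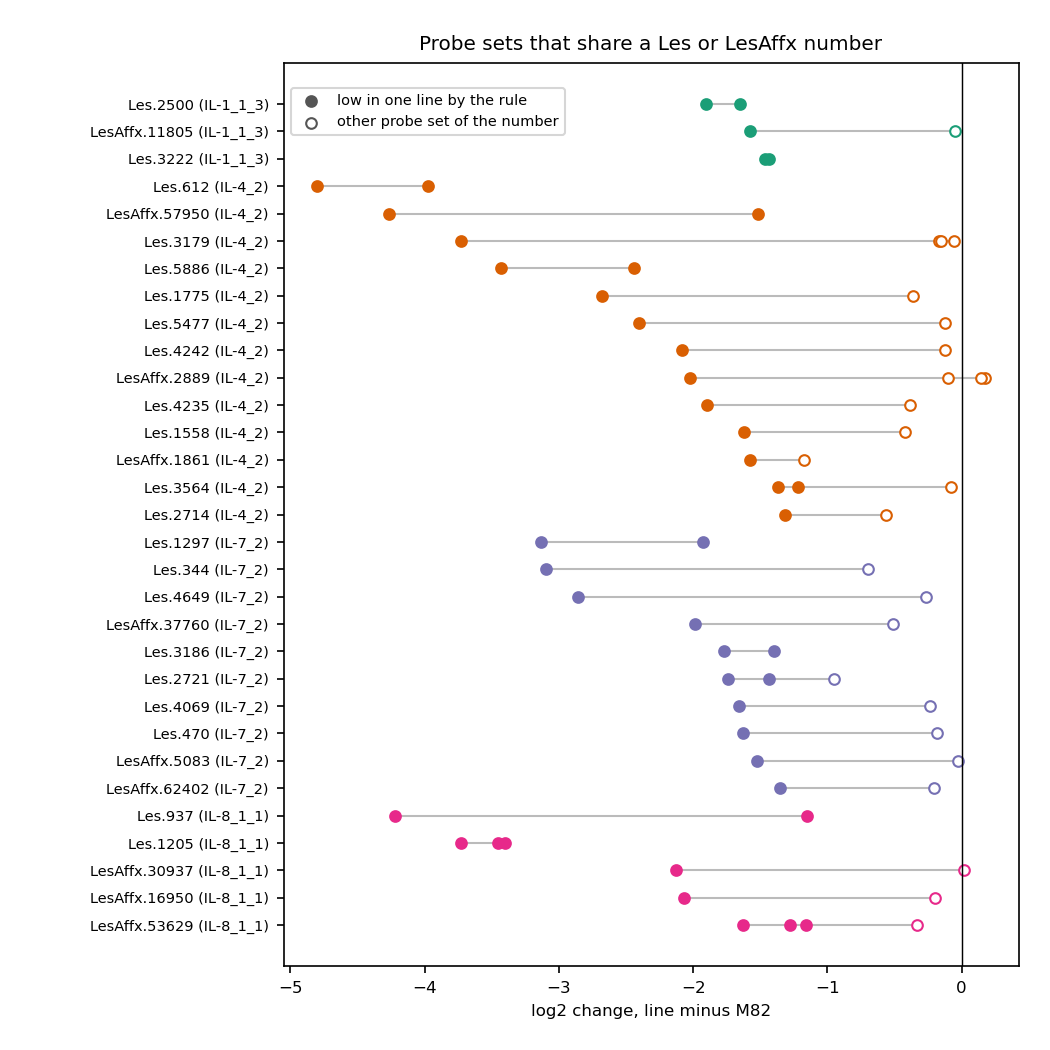
Log2 change of the low line against M82 for every unnamed probe set of the 31 numbers that hold a member and have several probe sets, grouped by line, with filled points for members and open points for the other probe sets of the number. Spread within a number runs from 0.024 (Les.3222) to 3.67 (Les.3179).

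The 26 probe sets that share a number with a member without meeting the rule were tested against M82 in the fit over all 10101 probe sets. Of these, 5 were called lower at an adjusted p of 0.05 and 0 higher, with 3 of 14 in IL-4_2, 2 of 8 in IL-7_2, 0 of 1 in IL-1_1_3 and 0 of 3 in IL-8_1_1. At an unadjusted p of 0.05 the limma fit had 11 of 26, with 5 in IL-4_2, 4 in IL-7_2, 0 in IL-1_1_3 and 2 in IL-8_1_1. The share of all probe sets at that unadjusted threshold was not computed, so the 11 cannot be judged against it. At the adjusted threshold, the share of all probe sets called lower was 1.03% in IL-1_1_3, 0.95% in IL-4_2, 1.14% in IL-7_2 and 0.812% in IL-8_1_1. A probe set as low as the rule asks would be a member and not among the 26, and the contrast is the one the rule used, so these counts describe what the choice left over. The count of 5 was 2 without M82 array 1 or 2 or IL-4_2 array 4, and 3 without M82 array 4, 5 or 6 or IL-4_2 array 1, 2 or 3. Their median change was -0.19, against 0.0058 to 0.037 over all probe sets in the 4 lines, and 23 of the 26 lay below 0.

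Les.2721.2.S1_at was the clearest of the 5. It read 10.65, 10.84, 10.40 and 10.65 in IL-7_2, against 11.40, 11.60 and 11.69 in M82, a change of -0.95 ± 0.08 (SE) with an adjusted p of 2e-07 in limma. The groups do not overlap, and the gap of 0.947688 fell just short of the rule. The members of its number, Les.2721.3.A1_at and Les.2721.1.A1_at, changed by -1.74 and -1.43. LesAffx.37760.1.A1_at read 4.44, 4.86, 4.45 and 4.41 in IL-7_2, against 4.95, 5.01 and 5.25 in M82, a change of -0.51 ± 0.11 (SE, adjusted p = 0.00996 in limma), while the sense probe set of its number changed by -1.99. Fitted with IL-7_2 and M82 alone, its adjusted p was 0.0568.

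The other 3 were called in IL-4_2. LesAffx.1861.2.S1_at read 6.37, 6.93, 7.08 and 6.49 in IL-4_2, against 7.54, 7.71 and 8.53 in M82, a change of -1.17 ± 0.29 (SE, adjusted p = 0.0467 in limma). Les.1558.1.S1_at read 7.16, 7.40, 7.64 and 7.50, against 7.69, 7.86 and 7.95 in M82, a change of -0.42 ± 0.10 (SE, adjusted p = 0.0359 in limma). Les.4235.1.S1_at read 13.83, 13.85, 13.56 and 13.77, against 13.96, 14.15 and 14.24 in M82, a change of -0.38 ± 0.09 (SE, adjusted p = 0.0242 in limma). All 3 adjusted p-values were near the threshold, and the calls did not hold when some single arrays were left out, while the changes stayed between -1.29 and -1.04 for LesAffx.1861.2.S1_at, -0.49 and -0.33 for Les.1558.1.S1_at, and -0.42 and -0.32 for Les.4235.1.S1_at. The adjusted p in limma reached 0.139 for Les.4235.1.S1_at, whose call was lost without IL-4_2 array 3 or 4 or M82 array 1, 2 or 6. It reached 0.161 for Les.1558.1.S1_at, lost without IL-4_2 array 1, 2 or 4 or any of M82 arrays 1 to 5. It reached 0.164 for LesAffx.1861.2.S1_at, lost without 17 of the 21 arrays in turn, each of the IL-4_2 and M82 arrays among them.

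Probe sets that were not called were found beside members in every line, with changes from close to 0 to a fraction of the member's. In IL-4_2, Les.3564.1.A1_at and Les.3564.1.A1_a_at changed by -1.37 and -1.22, and Les.3564.1.S1_at by -0.08. In IL-8_1_1, LesAffx.53629 had 3 members that changed by -1.63, -1.28 and -1.16, and its antisense probe set LesAffx.53629.3.A1_at by -0.33 (adjusted p = 0.205 in limma). LesAffx.5083.1.A1_at in IL-7_2 changed by -0.03 and LesAffx.11805.1.A1_at in IL-1_1_3 by -0.05, beside sense members at -1.52 and -1.57. LesAffx.30937.1.A1_at in IL-8_1_1 changed by 0.02 and LesAffx.16950.1.A1_at by -0.20. These last ones are the opposite orientation of a member, a kind to which 10 of the 26 belong, and all 10 averaged between 3.79 and 5.96 in the line and between 3.99 and 5.99 in M82. Levels this low in M82 leave less room to fall, so a small change does not tell whether the member's fall was shared. Of these 10, 1 was called and the median change was -0.16, while of the other 16, 4 were called and the median was -0.23.

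Larger differences that were not called were those of Les.2714.1.S1_at in IL-4_2, at -0.56 (adjusted p = 0.0585 in limma), and Les.344.1.A1_at in IL-7_2, at -0.69 (adjusted p = 0.415 in limma). Les.2714.1.S1_at lay near the threshold and was called in 5 of 28 other settings, with adjusted p-values from 0.0134 to 0.42 in limma. Les.344.1.A1_at read 6.88, 5.62, 8.27 and 8.22 on the IL-7_2 arrays, against 7.58, 8.07 and 8.15 in M82, so 2 arrays of the line lay below every M82 array and 2 above. Without array 2, which stood apart in its group, its difference was -0.15, and without array 3 or 4 it was -1.03 or -1.02. In IL-7_2, Les.4069.1.S1_at, LesAffx.62402.1.A1_at and Les.470.1.S1_at changed by -0.24, -0.21 and -0.18 beside members at -1.66, -1.36 and -1.63, and none was called. They averaged 4.59, 4.67 and 4.73 in M82 and 4.35, 4.47 and 4.55 in IL-7_2, where the percentile 10 of all unnamed probe sets was 4.88. A fall as large as the member's had little room to show there, so these values cannot tell whether it was shared.

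In the low line itself, limma called 19 of 21 members of IL-1_1_3 lower than M82, and every member in the other 3 lines. Since the rule used this contrast, nothing is read from these counts. In the 3 lines in which a member is not low, each member was compared with M82 as well, which gave 369 comparisons. Of these, 7 were called, 5 higher and 2 lower, which touched 5 members. By line, 4 of 102 were called in IL-1_1_3 (3.92%), 2 of 87 in IL-4_2 (2.30%), 1 of 84 in IL-7_2 (1.19%) and 0 of 96 in IL-8_1_1. Over all probe sets, the share called in either direction was 1.97% in IL-1_1_3, 1.83% in IL-4_2, 2.84% in IL-7_2 and 1.44% in IL-8_1_1, so 7 calls in all are close to what the background gives and are no result about the members. The rule asked these lines to lie above the low line, which bounds how low a member can be there. At an unadjusted p of 0.05 the limma fit had 17, 16, 6 and 5 comparisons in the 4 lines, taken in the same order. No share of all probe sets was computed at this unadjusted threshold, so nothing is read from these counts. The change was under 0.5 in size in 348 of the 369 and ran from -1.11 to 0.82. Without IL-7_2 array 2 the count called was 12, and without IL-1_1_3 array 2 or array 3 it was 3. It was 4 without IL-1_1_3 array 1 or M82 arrays 2, 5 or 6. Without IL-7_2 array 2, IL-4_2 array 3 and M82 array 3 together it was 20. The share of all probe sets called was not computed with arrays left out. The counts from those fits therefore cannot be judged against a background and are no result about the members.

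Among the 5 members called elsewhere, Les.1546.1.A1_at, low in IL-7_2 (10.39, 9.98, 10.24 and 10.23, against 10.75, 11.19 and 11.77 in M82), was higher than M82 in IL-4_2 by 0.82 ± 0.14 (SE, adjusted p = 0.00192 in limma). In IL-1_1_3 it was higher by 0.77 ± 0.15 (SE, adjusted p = 0.0165 in limma), a call lost without IL-1_1_3 array 2 or 3 (adjusted p up to 0.0745 in limma). Its line means were 10.21 in IL-7_2, 11.54 in IL-8_1_1, 11.99 in IL-1_1_3 and 12.04 in IL-4_2, against 11.22 in M82, so M82 lay between the lines. LesAffx.39235.1.S1_at, low in IL-1_1_3 (9.72, 9.60 and 9.79, against 10.37, 10.92 and 11.09 in M82), was higher than M82 in IL-4_2 by 0.82 ± 0.15 (SE, adjusted p = 0.00471 in limma). In IL-4_2 it was also higher than in IL-7_2 and IL-8_1_1, by 0.85 to 0.93 with adjusted p-values of at most 0.00516 in limma. LesAffx.30937.1.S1_at, low in IL-8_1_1 (4.88 to 5.08, against 6.50, 7.09 and 7.59 in M82), was also lower than M82 in IL-1_1_3, with a change of -1.002 ± 0.235 (SE, adjusted p = 0.0357 in limma) and in IL-7_2, with a change of -0.93 ± 0.21 (SE, adjusted p = 0.0207 in limma). The first call was lost (adjusted p up to 0.165 in limma) without any 1 of the IL-1_1_3 arrays or M82 array 2, 5 or 6, and the second (up to 0.0831) without IL-7_2 array 1 or 2 or M82 array 5. The remaining 2, Les.2713.1.A1_at and LesAffx.56426.1.S1_at, were higher in IL-1_1_3 by 0.44 and 0.63 (adjusted p = 0.0433 each in limma). The call of Les.2713.1.A1_at was lost without 11 of the 21 arrays in turn (adjusted p up to 0.236 in limma, without IL-1_1_3 array 2), and that of LesAffx.56426.1.S1_at without 12 (up to 0.23, without the same array). Each of the IL-1_1_3 arrays and M82 arrays 1, 2, 4, 5 and 6 was among them for both, beside IL-4_2 arrays 1 and 4 and IL-8_1_1 array 4 for Les.2713.1.A1_at, and IL-4_2 arrays 2 and 3 and IL-8_1_1 arrays 1 and 4 for LesAffx.56426.1.S1_at.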

How the data were processed

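Anther RNA was measured on 21 Affymetrix arrays, and samples were grouped by their titles. The table that the authors deposited holds 1 log2 value for each probe set and array, a scale read from the values. It was made with the affy package, per the submitters' processing notes. Version, summarisation and normalisation: not given in the sources used here. Array medians were nearly equal, as after scaling between arrays. No scan date is given, so no batch was tested.

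The 108 AFFX probe sets were left out and 10101 tested, including 63 reporter probe sets (RPTR). The platform's annotation, which can be old, gave a symbol to 909 probe sets. It left 9129 unnamed after RPTR was removed. Members and lists were chosen with earlier results of these data known.

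Each line was compared with M82 and with the other lines in 1 limma model of all 5 groups (limma 3.58.1, lmFit and eBayes, R 4.3.3), tested on simulated data, with Benjamini-Hochberg adjustment and a threshold of 0.05. Text names the 6 widest gaps per line, the members at the threshold and every number with several members. For other probe sets of those numbers it names per line up to 4 with the smallest p and 2 closest to 0. It names up to 2 members per line called elsewhere. Les.344.1.A1_at, Les.4649.1.S1_s_at, Les.3179.1.A1_at, LesAffx.2889, LesAffx.823.1.S1_at, the last 2 probe sets called in IL-1_1_3 and the genes with a symbol were added after their values were seen. Alternatives were another scaling (cyclic loess), a filter on the dimmest 0.25, smaller fits, other gaps and leaving out arrays. Replicate numbers do not pair the samples.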

Additional observations from a re-analysis of the deposited data

Results flagged for a closer look

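Among 119 groups of arrays of named probe sets, 8 had an array far from the others of its group by Dixon's test at the 95% level, and chance gives about 1 in 20. In M82, array 3 was low for LesAffx.14638.1.S1_at at 8.51 (nearest array 8.73), for Les.3186.3.A1_at at 14.20 (14.42) and for Les.3186.1.S1_at at 13.99 (14.14). Array 1 of M82 was low for LesAffx.39235.1.S1_at at 10.37 (10.84), array 6 was low for LesAffx.11805.1.A1_at at 4.62 (4.73), and array 4 was high for Les.3564.1.A1_at at 8.96 (8.48). In IL-8_1_1, array 4 was low for Les.937.2.A1_at at 3.76 (3.98). In IL-7_2, array 2 was high for LesAffx.37760.1.A1_at at 4.86 (4.45).

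The change against M82 differed between lines for 3 named probe sets, by the limma test of line against line. The change of LesAffx.37760.1.A1_at was lowest in IL-7_2, below all 3 other lines, with the smallest difference at -0.55 and adjusted p-values of at most 0.00755 in limma. That of Les.2721.2.S1_at was also lowest in IL-7_2, below all 3 other lines, with the smallest difference at -0.95 and adjusted p-values of at most 8.36e-07 in limma. LesAffx.39235.1.S1_at lay higher in IL-4_2 than in IL-7_2 and IL-8_1_1, with the smaller difference at 0.85 and adjusted p-values of at most 0.00516 in limma.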

How the results depend on the processing

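The 123 members became 124 after cyclic loess (121 shared), 155 by the gap alone, 193 at a gap of 0.5 and 44 at a gap of 2. They numbered 119 to 128 without single arrays, and 108 stayed members without each of the 21 arrays in turn. Leaving out 3 of the arrays that stood apart (array 2 of IL-7_2 and array 3 of both IL-4_2 and M82) gave 126, 116 of them shared. This setting was added once the data had been seen. The 5 other probe sets of the same numbers called lower became 3 in fits of a line and M82 alone, 2 at an adjusted p of 0.01 and 6 without those 3 arrays. They were 2 to 7 without single arrays. The 7 comparisons of members called in another line became 2 at an adjusted p of 0.01, 20 without those 3 arrays (6 shared) and 3 to 12 without single arrays. The share of all probe sets called was not computed in these settings, so the counts cannot be judged against it. The cause of the changed counts was not tested. Of 21 named results, 10 were called, of which 3 kept the call in every setting run, and 11 were not called, of which 10 were called in none. Of their 571 recomputed values no called one changed direction, 60 lost a call and 5 gained one. Les.2721.2.S1_at kept its call in all settings run, as did Les.1546.1.A1_at and LesAffx.39235.1.S1_at in IL-4_2.

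With the replicate number as a block, 2 of the other probe sets were called lower and 2 members in another line. The numbers do not pair the arrays: of 36 same-number pairs, 13 correlated above 0.1 (r from -0.81 to 0.70), and 1 of 21 arrays correlated best with its own number.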
